A study of Mus musculus with 5 samples.

Results

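The collagen and laminin chains are the subunits of the main structural proteins of the extracellular matrix. They were taken here by symbol, as every gene named Col with a number, a and a number, or Lama, Lamb or Lamc with a number. The RefSeq mouse gene table held 55 such symbols, and 45 of them had a named probe on the array, with 75 probes in all. Of these, 33 were found on at least 2 of the 5 arrays and were kept, among 15051 genes or unnamed probes kept in all. The 33 were 7 fibrillar collagen chains, 4 chains of type IV collagen, 9 laminin chains and 13 other collagen chains. The 10 symbols without a named probe, Col6a3, Col6a4, Col6a5, Col12a1, Col20a1, Col22a1, Col24a1, Col28a1, Lama3 and Lama5, were not analysed here.

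RNA levels came from 5 arrays of long oligonucleotides read in a single colour, each with RNA of colon that had not formed tumours, from mice on a C57Bl6 background that were 10 weeks old at the start. Villin-TLR4 mice (2 arrays: replicate 1 female, replicate 2 male) carry Toll-like receptor 4, which senses bacterial lipopolysaccharide, under the promoter of villin, which is active in intestinal epithelium and not in the connective tissue that makes most collagen. They were compared with wild-type littermates (WT littermate, 3 arrays, all female). Azoxymethane (AOM), a colon carcinogen, was injected at 7.4 mg/kg in both groups. Dextran sulfate sodium (DSS), a polymer that damages the colon lining, followed in 2 cycles, the first for 7 days from day 7 and the second for 5 days, and tissue was taken at day 56. DSS was given at 1.5% to villin-TLR4 mice and at 3% to WT littermates, and its concentration and the genotype cannot be told apart. Whether every sample is a separate mouse is not stated in the labels. The p-values therefore reflect the spread among these samples, which may be technical, and no untreated colon was compared. The sequence of the transgene is not stated, and no Tlr4 probe was used to check the genotype labels.

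A collagen is a trimer of chains wound into a triple helix. Types I, III and V assemble into the fibrils of the lamina propria and submucosa, made mainly by fibroblasts, whereas type IV forms the sheet of the basement membrane beneath epithelium and around vessels, muscle and fat cells. Laminins are crosses of an alpha, a beta and a gamma chain that lie in the same sheet and bind the integrins of the cells above, and those encoded by Lama3 and Lamb3 belong to the laminin of epithelial adhesion. In colitis the matrix is broken down and rebuilt, and both fibrillar and basement membrane chains are known to be made during repair.

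Values are log2 intensities after background correction and quantile normalization, with differences as villin-TLR4 minus WT littermate. Levels of different chains are not compared, since each probe has its own brightness. The 10 markers of colon epithelium, among them Vil1, Cdx2 and Epcam, were found on all 5 arrays. One array, that of WT littermate replicate 1, differed from the rest. On it 13352 gene probes were found against 16380 to 19509 on the others, 1240 spots were marked bad against at most 4, and its correlation with the other arrays over gene probes was 0.926 to 0.932 against 0.968 to 0.982 among the rest. Neutrophil markers were also high there, with a summed level of 15.39 on the log2 scale against 9.88 to 11.36 on the other arrays. The headers place the scans on 3 days, with villin-TLR4 replicate 1 alone on the first, WT littermate replicates 1 and 3 on the second, and replicate 2 of each genotype on the third. Differences are therefore also given without WT littermate replicate 1 and within the third scan day, which sets a male villin-TLR4 array against a female WT littermate array.

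No collagen or laminin chain passed the test between the genotypes. By limma with Benjamini-Hochberg adjustment, 0 of the 33 chains had an adjusted p under 0.05, as had 0 of the 15051 genes tested (0%), with a smallest adjusted p of 0.773 over all genes. The adjusted p of the chains ran from 0.87 to 0.995, and none had an unadjusted p under 0.05, against 730 of all genes. Mean levels were higher in villin-TLR4 for 17 chains and lower for 16, with a median difference of 0.02 beside 0.01 over all genes. The median size of a difference, regardless of sign, was 0.209 for the chains and 0.257 over all genes, while the median SD among the 3 WT littermate arrays was 0.42 for the chains and 0.35 over all genes. Without WT littermate replicate 1, 0 chains were called and 2 had an unadjusted p under 0.05, against 1639 of all genes, with a smallest adjusted p of 0.386 for Col14a1. In whole tissue, fewer cells of a type and less RNA per cell cannot be told apart.

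The 2 villin-TLR4 values lay all above or all below the 3 WT littermate values for 7 of the 33 chains, or 21.2%, beside 26.1% of all genes. Higher without overlap were Col6a1, Col8a2, Col23a1 and Lamc3, which is 12.1% of the chains beside 13% of all genes. Lower without overlap were Col14a1, Col4a6 and Col17a1, or 9.09% beside 13.1%. These shares were near the background and are no result about the chains. They use 1 probe per gene, and the other kept probes of Col6a1, Col23a1 and Col4a6 had overlapping groups. With fewer arrays, groups separate more often, and the count was 13 without villin-TLR4 replicate 1, 12 without villin-TLR4 replicate 2, 10 without WT littermate replicate 1, 13 without WT littermate replicate 2 and 16 without WT littermate replicate 3. The background then stood at 44.8%, 48.7%, 42.9%, 40.5% and 39.5% of all genes, in that order.

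**Figure D1:**
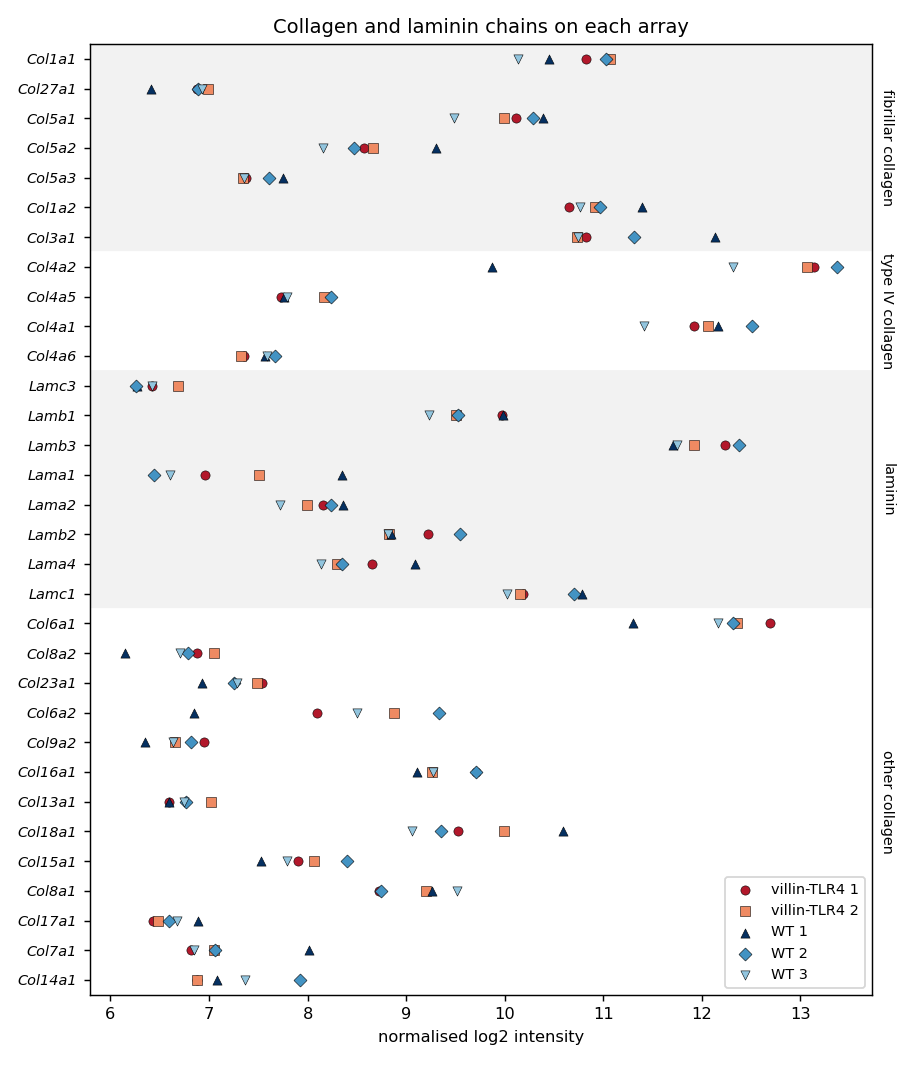
Normalised log2 intensity of 32 chains (rows, grouped by chain class) on the 5 arrays, with circles and squares for villin-TLR4 replicates 1 and 2 and triangles and diamonds for the WT littermate arrays. The array of WT littermate replicate 1 (dark upward triangle) lies far below the others for Col4a2 at 9.87 and above them for Col3a1 at 12.13.

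Of the 7 fibrillar chains, mean levels were higher in villin-TLR4 for 2 and lower for 5, with a median difference of -0.03, or 0.02 without WT littermate replicate 1, -0.29 without WT littermate replicate 3 and -0.05 within the shared scan day. With the mean in place of the median foreground intensity the class median was -0.31. The other 3 fibrillar chains with a probe, Col2a1 and Col11a1 and Col11a2 of cartilage, were found on at most 1 array. In what follows, values are given for villin-TLR4 replicates 1 and 2 and then for WT littermate replicates 1, 2 and 3.

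Col1a1 encodes one of the chains of type I collagen, the most abundant collagen of the gut wall, and read 10.83 and 11.07 in villin-TLR4 and 10.45, 11.03 and 10.14 in WT littermates. The highest villin-TLR4 and the highest WT littermate array, both scanned on the same day, differed by 0.04, and the groups overlapped. Its difference was 0.41 ± 0.32 (SE) over all arrays and 0.37 without WT littermate replicate 1. Col1a2, the other type I chain, read 10.65 and 10.92 against 11.39, 10.97 and 10.76, a difference of -0.26 ± 0.28, or -0.08 without WT littermate replicate 1 and -0.05 within the shared scan day. WT littermate replicate 1 was the highest array for Col1a2 and not for Col1a1. Col3a1, whose homotrimer is type III collagen and joins type I in the same fibrils, read 10.83 and 10.73 against 12.13, 11.31 and 10.74 on its brighter probe. WT littermate replicate 3 was level with the villin-TLR4 arrays, and the difference of -0.61 ± 0.42 became -0.25 without WT littermate replicate 1 and -0.58 within the shared scan day. A dimmer Col3a1 probe disagreed in sign, with 7.02 and 7.17 against 6.35, 7.02 and 6.81, a difference of 0.37.

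The chains of type V, which starts the assembly of fibrils and sets their width, had overlapping groups over all 5 arrays. Col5a1 read 10.11 and 9.99 against 10.39, 10.29 and 9.49, a difference of -0.01 ± 0.33, or 0.16 without WT littermate replicate 1 and -0.30 within the shared scan day. Col5a2 read 8.57 and 8.66 against 9.30, 8.47 and 8.16, a difference of -0.03 ± 0.37 that became 0.30 and 0.19 in the same settings. Its second probe gave 0.02, opposite in sign and as near to 0. Col5a3 gave -0.21 ± 0.24 and Col27a1, a fibrillar chain known mainly from cartilage, 0.19 ± 0.26, and Col27a1 was found on 1 of the villin-TLR4 arrays and 2 of the WT littermate arrays. Without WT littermate replicate 1 they gave -0.12 and 0.02, and within the shared scan day -0.27 and 0.10. Col1a2, Col3a1, Col5a1, Col5a2 and Col5a3 each had their highest value on WT littermate replicate 1, Col3a1 on its brighter probe only.

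Promoter windows, the 250 bases before a transcript start, were taken from the RefSeq table of GRCm38.p6, which held one for 25 of the 33 chains. Those of Col1a2 (chr6:4505368-4505617, plus strand) and Col3a1 (chr1:45311288-45311537, plus strand) are shown because both chains were highest on WT littermate replicate 1. For Col3a1 this held on its brighter probe only, and on its dimmer probe that array was the lowest. The 2 windows differ in their letters. Capitals mark matches on either strand. One motif searched was GGGCGG, known as the GC box. Another was CCAAT, named for its letters. TATAAA, a core promoter element, was searched as well. The last was TGANTCA, bound by the AP-1 factors, with any base at N. No match to one motif overlapped a match to another.
Col1a2: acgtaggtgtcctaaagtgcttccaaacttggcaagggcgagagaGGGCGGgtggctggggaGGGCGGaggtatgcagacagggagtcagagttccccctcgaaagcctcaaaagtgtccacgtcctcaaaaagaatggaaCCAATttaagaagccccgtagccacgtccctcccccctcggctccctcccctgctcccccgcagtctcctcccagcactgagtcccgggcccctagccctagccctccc
Col3a1: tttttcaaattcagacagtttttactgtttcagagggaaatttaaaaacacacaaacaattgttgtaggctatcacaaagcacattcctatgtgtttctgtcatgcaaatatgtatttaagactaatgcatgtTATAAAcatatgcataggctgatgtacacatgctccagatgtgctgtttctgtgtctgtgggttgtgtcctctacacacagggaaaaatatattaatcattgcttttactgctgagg
Col1a2 held GGGCGG in 2 places and CCAAT once, whereas Col3a1 held TATAAA alone. Over the 25 chains with a window, GGGCGG lay in a window of 16, CCAAT in that of 10, TATAAA in that of 3 and TGANTCA in that of 1. Over all 32851 windows of the table these were held by 32.7%, 33.8%, 12.4% and 6.75%. The 25 chains had 28 windows, and a chain counted once if any of its windows held a match. The percentages are per single window, so the counts and percentages are not in like units. A match describes the letters and is no measured site.

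Among the type IV chains 1 value stood far from the others. Col4a2, which pairs with Col4a1 in the trimer of most basement membranes, read 13.14 and 13.07 in villin-TLR4 and 9.87, 13.37 and 12.32 in WT littermates. The 4 other arrays lay between 12.32 and 13.37, and WT littermate replicate 1 deviated from their mean by -3.11, with 0.089% of all genes as far below on that array. The spot was marked as found on all 5 arrays, with a signal over background of 362 on that array against 6968 to 10973. The difference between genotypes was 1.25 ± 0.94 with it, 0.26 ± 0.35 without it and -0.30 within the shared scan day, so its size and sign rested on that array and on the day. Only 1 probe names Col4a2, and whether this reading belongs to the tissue or to the spot was not tested.

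Col4a1, the partner chain, read 11.92 and 12.06 against 12.16, 12.51 and 11.41, a difference of -0.04 ± 0.36 (0.03 without WT littermate replicate 1, -0.45 within the shared scan day), and its level on WT littermate replicate 1 was inside the range of the other arrays. The pair lies head to head. In GRCm38.p6 the Col4a1 transcript starts on the minus strand at position 11312826 of chromosome 8 and the Col4a2 transcript on the plus strand at 11312805, so their first 22 bases are shared on opposite strands (chr8:11312805-11312826). The stretch is shown, on the plus strand, because the probes of the pair parted on 1 array although their starts overlap. It was not searched for the motifs and carries no capitals, though its letters include GGGCGG.
Col4a1 and Col4a2: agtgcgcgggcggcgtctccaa
On the 4 other arrays Col4a1 minus Col4a2 ran from -1.22 to -0.86, and on WT littermate replicate 1 it was 2.30.

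Col4a5 and Col4a6, which are head to head on the X chromosome with their starts 1342 bases apart, encode the chains of the type IV trimer found in the basement membrane of smooth muscle and some epithelia. Col4a5 read 7.73 and 8.17 against 7.76, 8.24 and 7.79, a difference of 0.02 ± 0.28, or -0.06 without WT littermate replicate 1 and -0.07 within the shared scan day. High and low values occurred in both genotypes, and the sign turned in 11 of 21 settings, some of which rest on the same arrays and repeat each other. Col4a6 read 7.35 and 7.32 against 7.57, 7.67 and 7.59, which did not overlap, a difference of -0.27 ± 0.22. Leaving out WT littermate replicate 1 gave -0.29, and the shared scan day -0.35. A second Col4a6 probe gave -0.25 with overlapping groups, at 6.77 and 6.31 against 6.44, 7.05 and 6.90. Col4a3 and Col4a4, the remaining type IV pair, were found on no array. The class median was -0.01 over all arrays, -0.02 without WT littermate replicate 1 and -0.32 within the shared scan day.

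The laminin chains had 4 higher and 5 lower means, with a median difference of -0.04, or 0.09 without WT littermate replicate 1 and -0.25 within the shared scan day. The alpha chains of the laminins under the colonic epithelium, Lama3 and Lama5, are among those without a named probe.

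Lamb3, the beta chain of the epithelial adhesion laminin, read 12.24 and 11.92 against 11.71, 12.38 and 11.75, a difference of 0.14 ± 0.30, or 0.02 without WT littermate replicate 1 and -0.45 within the shared scan day. Lamb1, the beta chain of the widespread basement membrane laminins, read 9.97 and 9.51 against 9.98, 9.53 and 9.23, a difference of 0.16 ± 0.31, or 0.36 and -0.02 in the same settings. Lamc1, the gamma chain that most of those laminins share, read 10.19 and 10.16 against 10.78, 10.70 and 10.02, a difference of -0.32 ± 0.30, or -0.18 and -0.54. For both chains WT littermate replicate 3 was the lowest array and WT littermate replicate 1 the highest, so the villin-TLR4 values fell inside the range of the littermates.

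Lama1, an alpha chain best known from the embryo, read 6.96 and 7.51 against 8.35, 6.44 and 6.60. It was found on 1 array of each genotype, and its difference of 0.11 ± 0.60 became 0.72 without WT littermate replicate 1, where it was highest, and 1.07 within the shared scan day. With so few arrays found, these differences rest on dim readings. Lama2, the alpha chain of muscle, gave -0.04 ± 0.28, Lama4, that of vessels, -0.06 ± 0.35, and Lamb2 -0.05 ± 0.32. Those 3 chains were found on all 5 arrays, with values of 7.72 to 9.55 over chains and arrays, and none separated the genotypes. Without WT littermate replicate 1 they gave 0.09, 0.23 and -0.16, and within the shared scan day -0.25, -0.06 and -0.72. Lamc3 read 6.42 and 6.69 against 6.27, 6.26 and 6.42, a difference of 0.24 ± 0.23, or 0.22 without WT littermate replicate 1 and 0.43 within the shared scan day. Neither villin-TLR4 array had the spot as found, so its values there are only a bound and the narrow separation has no fold attached.

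**Figure D2:**
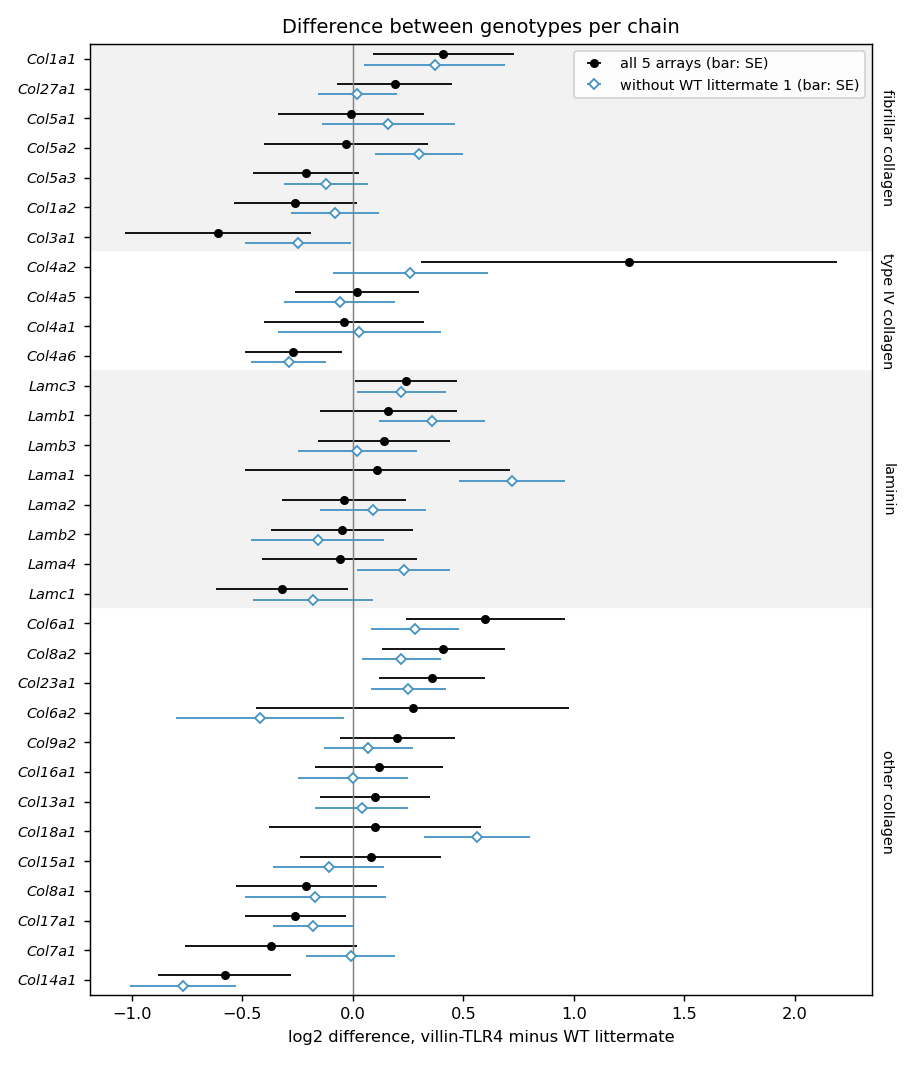
Difference of 32 chains in normalised log2 intensity, villin-TLR4 minus WT littermate, over all 5 arrays (filled circles) and without WT littermate replicate 1 (open diamonds), with bars of 1 SE from limma. Col4a2 moves from 1.25 to 0.26 without that array, and Col6a2 turns from 0.27 to -0.42.

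Of the 13 other collagen chains, 9 had higher and 4 lower means, with a median difference of 0.10. Without WT littermate replicate 1 the count of higher means was 6 and the median 0.00, and on the shared scan day the class median stood at -0.01. Type VI collagen, which forms beaded filaments between fibrils and the basement membrane, was measured through Col6a1 and Col6a2, without the third chain, Col6a3. Col6a1 read 12.69 and 12.36 against 11.30, 12.32 and 12.16, which did not overlap, a difference of 0.60 ± 0.36. The gap to the highest WT littermate array was 0.04, also the difference within the shared scan day, and without WT littermate replicate 1 the difference was 0.28. The other Col6a1 probes gave 0.54 and 0.30, but their groups overlapped, with WT littermate replicate 2 the highest array on both. Within the shared scan day these probes gave -0.04 and -0.14. On all 3 probes WT littermate replicate 1 was the lowest array. Col6a2 read 8.10 and 8.88 against 6.85, 9.33 and 8.50, and was not found on WT littermate replicate 1. Its difference of 0.27 ± 0.71 turned to -0.42 without that array and to -0.45 within the shared scan day.

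Both type VI chains were thus lowest on WT littermate replicate 1, with deviations from the mean of the other arrays of -1.09 for Col6a1 and -1.86 for Col6a2. Their promoter windows, both on the minus strand of chromosome 10 (chr10:76726045-76726294 for Col6a1 and chr10:76623631-76623880 for the farther of the Col6a2 starts), are shown because both chains were lowest on that array. Capitals mark the same motifs as above.
Col6a1: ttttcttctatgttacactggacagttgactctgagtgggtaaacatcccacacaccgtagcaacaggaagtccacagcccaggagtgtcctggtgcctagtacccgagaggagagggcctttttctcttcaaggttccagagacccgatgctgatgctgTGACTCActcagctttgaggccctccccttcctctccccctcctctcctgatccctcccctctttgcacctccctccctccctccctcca
Col6a2: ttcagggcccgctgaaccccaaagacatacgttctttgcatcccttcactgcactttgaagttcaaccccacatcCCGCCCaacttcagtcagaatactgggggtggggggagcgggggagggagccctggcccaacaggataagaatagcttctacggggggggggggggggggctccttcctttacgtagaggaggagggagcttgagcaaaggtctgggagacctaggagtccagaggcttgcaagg
Col6a1 held the only TGANTCA match among the windows of the chains, and the Col6a2 window shown held GGGCGG once, on its opposite strand. The window of the other Col6a2 start (chr10:76623405-76623654), not shown, held 3 matches to GGGCGG.

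The other chains of this class have more specialised roles. Col8a2, of the hexagonal network beneath endothelium, read 6.88 and 7.05 against 6.15, 6.79 and 6.71, a difference of 0.41 ± 0.28. Col23a1, a transmembrane collagen, read 7.54 and 7.49 against 6.93, 7.25 and 7.28, a difference of 0.36 ± 0.24. In both, WT littermate replicate 1 was the lowest array, and without it the differences were 0.22 and 0.25 and the groups still did not overlap. Within the shared scan day they were 0.27 and 0.24. A second Col23a1 probe gave 0.27 with overlapping groups, at 7.12 and 6.90 against 6.50, 6.79 and 6.93. Col14a1, a collagen attached to the surface of fibrils, read 6.88 and 6.88 against 7.08, 7.92 and 7.37, a difference of -0.58 ± 0.30. It was found on 1 villin-TLR4 array and 2 WT littermate arrays, and it was the chain with the smallest unadjusted p, 0.1 over all arrays. Its difference was -0.77 without WT littermate replicate 1 and -1.04 within the shared scan day. Col17a1, a transmembrane collagen of hemidesmosomes, read 6.43 and 6.48 against 6.89, 6.59 and 6.68, a difference of -0.26 ± 0.23, or -0.18 without WT littermate replicate 1 and -0.11 within the shared scan day. Its spot was found on neither villin-TLR4 array, so the values there are only a bound, no fold is attached, and its place among the chains without overlap rests on dim readings.

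Col18a1 and Col15a1 encode basement membrane collagens with heparan or chondroitin sulfate chains. Col18a1 read 9.53 and 9.99 against 10.59, 9.35 and 9.06, so its difference of 0.10 ± 0.48 became 0.56 without WT littermate replicate 1 and 0.64 within the shared scan day. Without WT littermate replicate 1 both villin-TLR4 arrays lay above the remaining littermates. Col15a1 gave 0.08 ± 0.32, or -0.11 and -0.33 in the same settings. Col7a1, of the anchoring fibrils that hold the basement membrane to the tissue below, read 6.82 and 7.05 against 8.01, 7.06 and 6.85. Its difference of -0.37 ± 0.39 was -0.01 in both settings. Col8a1 gave -0.21 ± 0.32, Col13a1 0.10 ± 0.25, Col16a1 0.12 ± 0.29 and Col9a2 0.20 ± 0.26, all with overlapping groups. Without WT littermate replicate 1 these 4 gave -0.17, 0.04, 0.00 and 0.07, and within the shared scan day 0.47, 0.24, -0.44 and -0.17. The 7 other collagens of this class with a probe that was not kept, Col6a6, Col9a1, Col9a3, Col10a1, Col19a1, Col25a1 and Col26a1, were found on no array.

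Chains of a trimer can also be set against each other within an array, which cancels only what an array does equally to both. The size of such a gap depends on the probes, so only its change between arrays is read. For 7 pairs, of which 6 are given here, the gap was compared by an exact two-sided permutation test over the 10 splits of the arrays, which cannot give a p under 0.1, so no pair could pass. Lamb1 minus Lamc1 was -0.22 and -0.65 in villin-TLR4 and -0.80, -1.17 and -0.79 in WT littermates, with a difference of 0.49 (exact p 0.1, adjusted over the pairs 0.42) and 0.55 without WT littermate replicate 1. Col1a1 minus Col1a2 was 0.18 and 0.15 against -0.94, 0.06 and -0.62, a difference of 0.67 (exact p 0.2) and 0.45 without that array. The Col4a1 and Col4a2 gap gave -1.29 (exact p 0.5) and -0.23 without it. The gaps of Col4a5 and Col4a6, Col6a1 and Col6a2, and Col8a1 and Col8a2 gave 0.29, 0.33 and -0.63, and adjusted p over the 7 pairs ran from 0.42 to 0.70. Col4a6, Col6a2 and Col8a2 were each found on only 2 of the WT littermate arrays, so their gaps rest partly on dim readings.

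**Figure D3:**
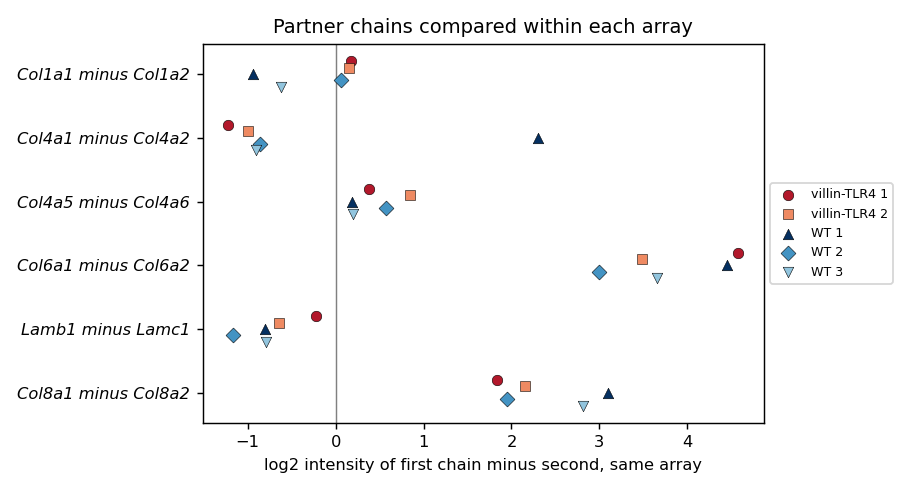
Log2 intensity of one chain minus that of its partner on the same array, for 6 pairs, with villin-TLR4 arrays in red and orange and WT littermate arrays in blue. For Col4a1 and Col4a2, 4 arrays lie between -1.22 and -0.86 and WT littermate replicate 1 at 2.30.

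Between 2 of the WT littermate arrays most chains differed in the same direction. WT littermate replicate 2 read above WT littermate replicate 3 for 27 of the 33 chains, or 81.8%, beside 52.4% of all genes, with a median gap of 0.31 beside 0.02. Among the chains found on all 5 arrays it was 19 of 21, or 90.5%, beside 51.2% of the genes found on 5 arrays. By class the counts were 6 of 7 fibrillar, 4 of 4 type IV, 7 of 9 laminin and 10 of 13 other chains. The same order held for 19 of 20 genes of collagen processing, or 95%, and for 19 of 20 fibril-associated matrix proteins, so it was not particular to the chains. It held for 8 of 12 receptors for collagen and laminin, and for 3 of 5 basement membrane partners with a median gap of 0. Col8a1 went furthest the other way, at -0.79. Between the villin-TLR4 arrays the chains did not lean to one side, with replicate 1 above replicate 2 for 16 of 33. WT littermate replicates 2 and 3 were scanned on different days, as were the villin-TLR4 arrays. These orders were noticed in the values and carry no test.

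Markers of other cells are given for the same pair of arrays. Smooth muscle markers read higher on WT littermate replicate 2 than on replicate 3 for 8 of 8, by a median of 0.90, as did 9 of 10 fibroblast markers by 0.42 and 5 of 7 endothelial markers by 0.05. Markers of colon epithelium did so for 4 of 10, by a median of -0.30, and markers of exocrine pancreas for 0 of 7, by -3.29. Neutrophil markers did so for 5 of 6, by 0.44, markers of enteric glia and neurons for 2 of 3, by 0.25, and adipocyte markers for 2 of 4, by -0.04. Summed levels of the smooth muscle markers were 16.09 and 15.62 in villin-TLR4 and 14.05, 16.13 and 15.26 in WT littermates, and those of the fibroblast markers 13.91 and 13.72 against 14.40, 14.56 and 14.10. Of these markers 5 of 8 and 8 of 10 were found on all 5 arrays, and each of the rest on at least 3. Between genotypes the smooth muscle markers had 8 of 8 higher means in villin-TLR4 with a median difference of 0.55, or 0.11 without WT littermate replicate 1 and -0.51 within the shared scan day. The exocrine pancreas markers had 7 of 7 lower means in villin-TLR4 without overlap, beside 13.1% of all genes lower without overlap. Their median difference was -3.02, with summed levels of 9.91 and 10.08 against 11.06, 12.63 and 15.85. In villin-TLR4, Cela2a, Pnlip and Cpa1 were found on 0 arrays, and Ctrb1 and Cel on 1. Their values there are near the floor, so the median difference is only a bound. Cela2a, Pnlip and Cpa1 were kept only through the WT littermate arrays, where they read higher, so the count of 7 is not read as a result. The part of these cells in the levels of the chains was not tested. WT littermate replicate 1, lowest for smooth muscle markers and for both type VI chains, was the highest array for 14 chains, or 42.4% beside 32.2% of all genes, and the lowest for 10, or 30.3% beside 39%.

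**Figure D4:**
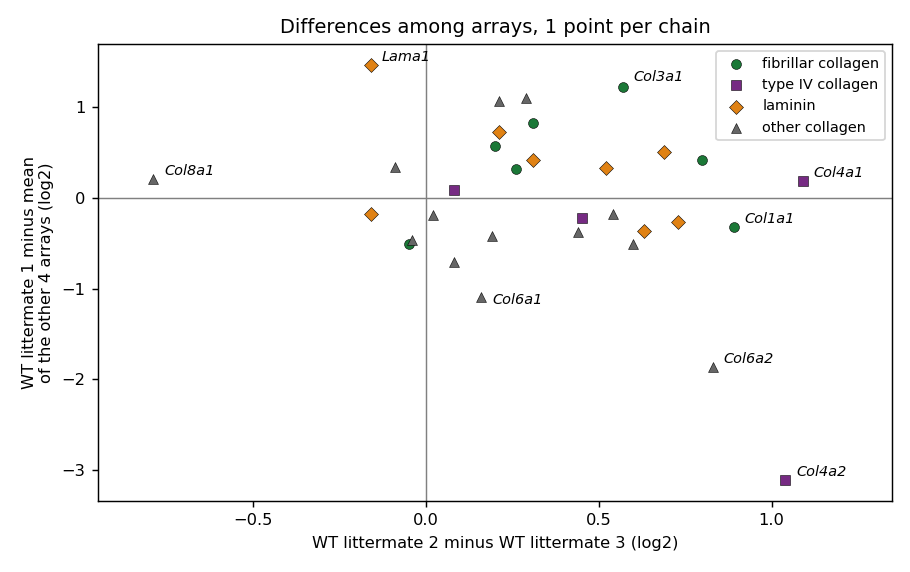
Each point is 1 of 32 chains, coloured by class, with WT littermate replicate 2 minus replicate 3 on the horizontal axis and WT littermate replicate 1 minus the mean of the other 4 arrays on the vertical axis, both in log2. On the horizontal axis 26 of them lie above 0, and on the vertical axis Col4a2 lies at -3.11.

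Genes that build or bind the chains were read from 4 further lists, in which 0 genes passed. Of 26 enzymes and chaperones of collagen processing and cross-linking, 20 were measured, with 9 higher and 11 lower means and a median difference of -0.05. Loxl2, a cross-linking oxidase, read 10.07 and 10.28 against 9.93, 9.90 and 9.10, a difference of 0.53 ± 0.33, though its found probes disagreed in sign. Pcolce2, an enhancer of the enzyme that trims procollagen, read 6.93 and 6.84 against 8.36, 7.75 and 7.15, a difference of -0.87 ± 0.38, or -0.56 without WT littermate replicate 1, and was found on 1 villin-TLR4 array. P4ha2, a subunit of the prolyl hydroxylase that stabilises the helix, separated by a small gap, with 8.38 and 8.47 against 8.52, 8.55 and 8.53 and a difference of -0.11 ± 0.22. Without WT littermate replicate 1 Loxl2 gave 0.67 and P4ha2 -0.12. Within the shared scan day Loxl2, Pcolce2 and P4ha2 gave 0.37, -0.91 and -0.08. Of the 20 genes, 1 was higher and 2 were lower without overlap, beside 13% and 13.1% of all genes.

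Matrix proteins associated with fibrils numbered 20 measured of 23, with 9 higher and 11 lower means and a median difference of -0.10, or -0.43 within the shared scan day. Tnc, tenascin C of remodelling tissue, read 10.38 and 10.89 against 11.09, 11.48 and 11.52, a difference of -0.73 ± 0.28, or -0.87 without WT littermate replicate 1. Ccn2, the connective tissue growth factor that induces collagen genes in fibroblasts, read 10.17 and 10.46 against 10.87, 11.23 and 10.57, a difference of -0.57 ± 0.28. Without WT littermate replicate 1 Ccn2 gave -0.58, and within the shared scan day Tnc gave -0.59 and Ccn2 -0.76. Both were lower without overlap in villin-TLR4 and had an adjusted p of 0.87. With Postn they made 3 of the 20 measured genes lower without overlap, beside 13.1% of all genes, and none was higher without overlap, beside 13%. Basement membrane partners had 5 measured of 11, with 2 higher and 3 lower means, a median of -0.01 and no gene without overlap.

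Of 15 receptors for collagen and laminin, 12 were measured, with 8 higher and 4 lower means and a median difference of 0.11. Itga6, the integrin chain with which epithelium holds laminin, read 12.21 and 11.96 against 12.48, 13.21 and 12.47, a difference of -0.63 ± 0.31, or -0.75 without WT littermate replicate 1. Bcam, a receptor for laminins with the alpha chain that Lama5 encodes, read 8.39 and 8.43 against 9.70, 8.51 and 8.85, a difference of -0.61 ± 0.38 that became -0.27 without that array. Within the shared scan day Itga6 gave -1.25 and Bcam -0.08. These 2 of the 12 receptors were lower without overlap, beside 13.1% of all genes, and none was higher without overlap, beside 13%. Itgb1, the beta chain shared by most of these integrins and singled out after its values were seen, was also low on WT littermate replicate 1. It stood at 10.77 on WT littermate replicate 1 and at 12.95 to 13.61 on the other arrays, with spots marked as found. Its difference of 0.85 ± 0.79 became 0.02 without WT littermate replicate 1 and -0.38 within the shared scan day.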

How the data were processed

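Per the labels' protocols, biotin-labelled cRNA was prepared from total colon RNA and stained with fluorescent streptavidin. The authors' scanner files hold foreground and background intensity at 635 nm for 38880 spots per array, with no normalization applied, from GenePix Pro 4.1.1.4 and a 4000B scanner, per the file headers. Per the file headers each spot also has a flag, a score of 0 where it was found, -50 where not, -75 where absent and -100 where bad. The authors' deposited value table holds a linear ratio per probe, whose differences between arrays follow the scanner signals. The divisor of each probe is not stated, and on WT littermate replicate 1 only 96.68% of values matched within 0.02 on the log2 scale. Its column medians were 0.981, 1.06, 1.18, 0.98 and 0.991. The column of WT littermate replicate 1 held 9000 values, against 14429 to 15027 in the others. How many arrays there are limits the precision.

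Median foreground was corrected for median background by limma's normexp at an offset of 50 (limma 3.58.1, R 4.3.3). Spots marked bad were set to missing, 3802 control spots were left out, and 35078 gene probes were taken to log2 and quantile normalized. Accessions matched to a RefSeq table of GRCm38.p6 gave 23071 probes 1 symbol. A probe had to be found on 2 arrays, and the probe with the highest mean stood for a gene. The fit used lmFit and eBayes over all 15051 genes or unnamed probes, with two-sided p-values adjusted over all of them by Benjamini-Hochberg. The chains and gene lists were chosen with earlier results of these data known. Named chains were those without overlap between groups, up to 8 a direction, and the main colonic trimers. From each related list up to 2 genes a direction without overlap were named. Alternatives were other background corrections, foreground mean, 75th-percentile scaling, cyclic loess, other probe filters, the mean of all found probes, other variance models, a replicate block, sex, scan day, leaving out each array and the authors' value table. The code was tested on simulated data. Counts and medians cover all 33 chains, of which 1 is not reported singly here.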

Additional observations from a re-analysis of the deposited data

How the results depend on the processing

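No chain passed in any of 20 alternative fits, where the smallest adjusted p of a chain ran from 0.31 to 1. Over all genes 19 were called with a replicate block, although same-numbered samples did not deviate together (correlations of -0.15 and -0.21 over 2 pairs) and the numbers pair nothing in the labels, and 4 with scan day as a block, with 0 chains among them. Chains without overlap numbered 3 with scaling to the 75th percentile, 2 of 21 when found on all 5 arrays and 4 of 24 in the authors' value table, and 10 to 16 with 1 array left out. Except with 1 array left out, the share over all genes in these settings is not given here. The counts are therefore not read as a result about the chains. The median of basement membrane partners was 0.12 when found on all 5 arrays and 0.25 in the value table. That of receptors was -0.03 with the replicate block. With scan day as a block, as within the shared scan day, medians were -0.32 for type IV chains, -0.43 for fibril-associated proteins and -0.10 for receptors. The fibrillar median was -0.31 with the foreground mean and -0.29 with the replicate block. With sex as a covariate the other collagen chains had a median of -0.12. With 1 array left out, medians ran from -0.12 to 0.29 for the other collagen chains, -0.17 to 0.19 for fibril-associated proteins, -0.09 to 0.21 for basement membrane partners and -0.03 to 0.14 for receptors. Villin-TLR4 replicate 2 is the only male array, so with sex as a covariate the differences equalled those without that array. The replicate block likewise gave the differences found without WT littermate replicate 3, whose number no villin-TLR4 sample has. These settings are thus not separate checks. The cause of the other moves was not tested.

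Among the named chains, signs turned for 7. Signs of other chains were followed only without WT littermate replicate 1 and within the shared scan day, with values given above. Col4a5 gave -0.04 with the foreground mean, -0.06 with the 75th percentile, -0.03 with cyclic loess, -0.01 with array weights, -0.05 with the replicate block, -0.19 with sex as a covariate, -0.07 with scan day as a block and -0.16 in the value table. Col6a2 gave -0.01 with cyclic loess, -0.24 with array weights, -0.12 with sex as a covariate, -0.45 with scan day as a block and -0.55 in the value table. The value table held no value of WT littermate replicate 1 for Col4a5 or Col6a2, so their differences there also leave out that array. With scan day as a block Col4a2 gave -0.30, Lamb3 -0.45 and Lamb1 -0.02, and Lamb1 gave -0.01 with the replicate block. Lamc3 gave -0.48 with the foreground mean and Col4a1 0.12 with array weights. With 1 array left out, differences ran from -0.34 to 0.20 for Col4a1, -0.42 to 0.82 for Col6a2, -0.02 to 0.35 for Lamb3, -0.07 to 0.39 for Lamb1 and -0.19 to 0.24 for Col4a5. Chains near background (Lamc3, Col17a1, Col14a1, Lama1, Col8a2) are limited by signal. With plain background subtraction Col8a2 gave 1.51, Lamc3 1.03, Col17a1 -0.80 and Col14a1 -1.04, and with scaling to the 75th percentile Col8a2 gave 0.11 and Lamc3 0.00.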

Other observations

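In the authors' deposited table, whose linear ratios were taken to log2 and which held 24 of the 33 chains, Col4a2 stood at -2.08 on WT littermate replicate 1 and between 0.56 and 1.54 on the other arrays. Col4a1 read 0.40 there, the highest of its 5 values.

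Adipocyte markers, of which 4 of 6 were measured, had a summed level of 13.38 on villin-TLR4 replicate 1 and 9.39 on villin-TLR4 replicate 2.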
